A study of Homo sapiens with 12 samples.

Results

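The libraries compared here came from the human lymphoma line U-2932, of the diffuse large B cell type, whose cells stably expressed either wild-type Roquin2 (WT) or Roquin2 with the Y691F substitution, and which had been stimulated for 12 h with 10 µg/ml of F(ab')2-IgM. Each Roquin2 form was represented by 3 libraries, which the submitters describe as independent biological replicates, so 6 of the 12 libraries of the series entered the comparison. The other 6 libraries came from untreated cells of the same Roquin2 forms, 3 each, and served as the level of each difference before stimulation. All 12 libraries therefore came from cells with an introduced Roquin2, and no group had parental cells. The members were all genes with enough counts: 15112 of the 60675 genes in the table passed the filter on low counts and were tested. Whether each form was carried by 1 clone or by several lines, the vector, its promoter and the state of the endogenous gene were in none of the sources used here. The Roquin2 form and any other difference between the cell populations cannot be told apart.

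Roquin2, the product of RC3H2, and its paralog Roquin1, the product of RC3H1, are RNA-binding proteins that recognise short stem-loops in the 3′ untranslated region of target mRNAs and recruit deadenylases and decapping factors, which shortens the life of those mRNAs. Known targets in lymphocytes include TNF and inhibitors of the NF-kB pathway. F(ab')2-IgM cross-links the surface B cell receptor, which starts SYK and BTK signalling and, downstream, calcium, ERK and NF-kB responses. KLHL6 is a B cell adaptor of the cullin 3 ubiquitin ligase for which Roquin2 has been reported as a substrate, and Y691F is a form of Roquin2 reported to be spared by it. The comparison asks how the transcript levels of stimulated cells differ when the introduced Roquin2 is that form and not the wild type. The level of RC3H2 transcript differed as well, as given below, so form and amount cannot be told apart.

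The substituted residue lies in the longest annotated form of the protein, of 1191 residues (transcript RC3H2-203, GENCODE release 29, GRCh38), and its codon sits at chr9:122858879-122858881 on the minus strand. The stretch is shown because the cells differed by design at this codon, given in capitals, which encodes tyrosine in the reference. The sequence of the introduced construct was not analysed here.
RC3H2, the codon of Y691F and its flanks: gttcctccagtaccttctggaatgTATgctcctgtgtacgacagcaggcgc

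The 6 libraries held 16465393 to 19674442 counts, with 7.63% to 8.55% of them on mitochondrial genes. The first principal component of their log-CPM, 61.8% of the variance, parted WT from Y691F, and the second, 10.3%, spread the 3 WT libraries. Of 12 B cell markers all 12 were tested, and 5 were higher and 6 lower with Y691F, with log2 differences from -1.10 to 0.88. Of 18 T and NK cell markers 13 had a count in the 6 libraries. CD3D, CD2, NKG7 and GNLY were among the others, with 0 reads in each. The 8 that were tested were TRBC1, TRBC2, NCAM1, PRF1, CD8A, CD28, TRAC and CD247. Of these 8, 7 were higher with Y691F and 0 lower, with log2 differences of the 8 from 0.20 to 4.95. Their summed level was 99.7 to 110.6 CPM with WT and 151 to 159 CPM with Y691F, most of it from TRBC1 and TRBC2, the T cell receptor beta constant genes. NCAM1, which had very few reads with WT, could add only to the higher count. Of 14 myeloid markers 1 was tested, CD14, whose higher call was lost without WT replicate 1 or 2 or Y691F replicate 2 or 3, and of 13 fibroblast and epithelial markers 5 were. U-2932 is known to hold more than one subclone. Of 6 genes reported to part them, CD38 was 37.0 CPM with WT and 94.2 CPM with Y691F, CD27 9.40 and 25.9, MS4A1 439 and 339.9, BCL6 125 and 146, CD58 18.5 and 14.2, and MYC 19.0 and 15.2. The part of these markers and of the subclone make-up in the results below was not tested.

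Levels are given as CPM, the counts scaled to a common library total after TMM correction, and differences as log2 of Y691F over WT with a standard error (SE). Calls needed an adjusted p under 0.05 in edgeR's quasi-likelihood test, with Benjamini-Hochberg adjustment over all 15112 genes, and 3 values in a row are the 3 replicates in order. With IgM, 3305 genes (21.9%) were called higher with Y691F and 3057 (20.2%) lower. Most differences were small: the median size among called genes was 0.31 on the log2 scale, 491 higher and 197 lower genes passed 2-fold, 111 and 47 passed 4-fold, and 32 and 16 passed 8-fold. The share of called genes rose with the level, from 14.3% of the genes under 1 CPM to 31.8% between 1 and 10 CPM, 51.8% between 10 and 100 CPM, and 64.2% from 100 CPM up. The 3 libraries of one form all lay above the 3 of the other for 94.8% of the called genes. A share of called members in a gene list has to be read against 21.9% and 20.2%, and against the level and kind of its members. Of 11507 tested protein-coding genes with an annotated 3′ untranslated region, 26.1% were called higher and 23.3% lower. The lists were not matched to the background for level or kind of gene, so a share modestly above 21.9% or 20.2% is not a result about a list. A low gene could pass the filter through a single group where it was high. Such a gene adds to a list's count on that side only. The labels name no separate lines for the replicates, so p measures the spread between these libraries. That spread was small, with a common biological coefficient of variation of 2.51%. Chi-square over degrees of freedom, near 1 for counting noise alone, was 1.43 to 1.63 between WT and 1.93 to 2.16 between Y691F libraries. The small p values do not measure how other cells carrying each form would differ.

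**Figure D1:**
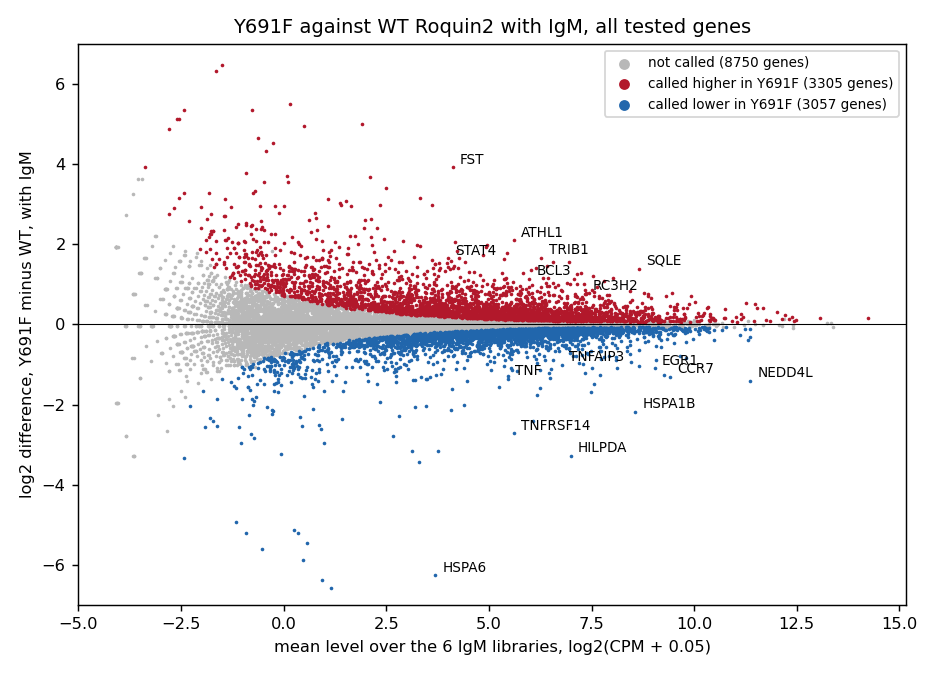
Each point is 1 of the 15112 tested genes, with its mean level over the 6 IgM libraries on the horizontal axis (log2 of CPM + 0.05) and the log2 difference, Y691F minus WT, on the vertical axis; red and blue mark the 3305 higher and 3057 lower calls. The red and blue bands narrow towards 0 at high levels, where small differences were called, and HSPA6, HILPDA, TNFRSF14 and HSPA1B stand out below.

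Among the Roquin and Regnase proteins themselves, the sequence-specific decay factors of this pathway, the family did not move one way. RC3H2 was at 120.0, 119.8 and 123 CPM with WT and 206, 207 and 204 CPM with Y691F (log2 difference 0.77, SE 0.033, adjusted p = 7.31e-36). Every Y691F library lay above every WT library, as in the untreated cells, where the means were 111 and 209 CPM. The count cannot separate reads of the introduced Roquin2 from those of the endogenous gene. RC3H1 was at 57.1, 67.6 and 64.7 CPM with WT and 64.2, 64.0 and 61.6 CPM with Y691F, with overlapping groups and no call (log2 difference 0.00, adjusted p = 0.968). In untreated cells RC3H1 had been higher with Y691F (log2 difference 0.48, adjusted p = 3.06e-11). ZC3H12A, which encodes Regnase-1, an endonuclease that cuts many of the same stem-loops, was at 128, 128 and 132 CPM with WT and 51.4, 53.2 and 49.5 CPM with Y691F (log2 difference -1.33, SE 0.040, adjusted p = 3.51e-46). Its groups lay far apart, with every Y691F library below every WT library. ZC3H12C, a relative of Regnase-1, went the other way, with 102, 106 and 111 CPM with WT and 215, 220.5 and 209 CPM with Y691F (log2 difference 1.02, SE 0.035, adjusted p = 7.51e-42). ZC3H12D was lower, at means of 10.8 and 5.74 CPM (log2 difference -0.91, SE 0.11).

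KLHL6 was at 332, 324 and 332 CPM with WT and 402, 399 and 419 CPM with Y691F (log2 difference 0.30, SE 0.029, adjusted p = 2.6e-15). It was higher with Y691F under IgM and lower with Y691F in untreated cells (log2 difference -0.46), and the difference between both comparisons was 0.76 (SE 0.040), adjusted p = 1.11e-28. Of 22 tested genes for KLHL adaptors and cullin 3, 4 were higher and 7 lower under IgM, and 11 were not called. Among 30 deadenylation, decapping and exonuclease factors, the machinery that Roquin proteins recruit, 8 were higher and 8 lower. CNOT1, the scaffold of the main deadenylase, was at 779 CPM with WT and 934 CPM with Y691F (log2 difference 0.26, SE 0.027). Among 13 AU-rich element binding proteins 3 were higher and 5 lower, with ZFP36L2, a mRNA-destabilising protein, the furthest up (log2 difference 0.57, SE 0.036). Leaving out replicate 2 of Y691F made the higher count 5.

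Of 14 reported Roquin targets 11 were tested, 1 was higher and 7 were lower, and their median log2 difference was -0.52, beside -0.0049 for all tested genes. The sites below are shown because 3 of the lower members, TNF, NFKBIZ and NFKBID, carry the letters of such a stem-loop in their 3′ untranslated region. Capitals mark the pattern TTCNNNGAA, in which any 3 letters separate TTC from its reverse complement GAA, found on the transcript strand with GENCODE release 29.
TNF, chr6:31578104-31578124, plus strand: catgttTTCCGTGAAaacgga
NFKBIZ, chr3:101859469-101859489, plus strand: agttgtTTCTATGAAacaaac
NFKBID, first site, chr19:35888326-35888346, minus strand: gatgatTTCTGTGAAatcgag
NFKBID, second site, chr19:35888298-35888318, minus strand: gattgtTTCTGTGAAacaccc

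NFKBIZ, which encodes the atypical NF-kB cofactor IkB-zeta, was at 114, 115 and 114 CPM with WT and 35.8, 40.0 and 37.7 CPM with Y691F (log2 difference -1.59, SE 0.044, adjusted p = 5.14e-49). Every Y691F library lay below every WT library, and the gene was also lower in untreated Y691F cells (log2 difference -1.19). TNF, the founding inflammatory cytokine of its family, was at 63.5, 62.6 and 65.2 CPM with WT and 26.6, 24.0 and 23.4 CPM with Y691F (log2 difference -1.36, SE 0.054, adjusted p = 6.28e-38). Here the untreated comparison had the opposite sign, with 26.9 CPM in WT and 42.7 CPM in Y691F (log2 difference 0.66), so that TNF lay below its untreated level in Y691F cells given IgM and above it in WT cells. NFKBID, which encodes the nuclear inhibitor IkBNS, was at 412, 393 and 413 CPM with WT and 291, 283 and 274 CPM with Y691F (log2 difference -0.52, SE 0.030, adjusted p = 1.76e-27). It too had been higher in untreated Y691F cells (log2 difference 0.64). TNFAIP3, which encodes the deubiquitinase A20, a brake on NF-kB signalling, was at 148, 143 and 149.9 CPM with WT and 72.3, 74.2 and 71.4 CPM with Y691F (log2 difference -1.01, SE 0.039, adjusted p = 6.91e-39). The untreated levels were 38.6 and 41.4 CPM with no call, and the difference between the comparisons was -1.11 (SE 0.062), adjusted p = 3.66e-27. TNFRSF4, which encodes the costimulatory receptor OX40, was low, at means of 4.84 and 2.31 CPM (log2 difference -1.06, SE 0.16). Leaving out WT replicate 1 moved the higher count from 1 to 2. REL, IRF4 and UCP3 were not called. FOXO1 was lower by a small step (log2 difference -0.13, SE 0.049), a call that was lost in the DESeq2 Wald test, without the filter on low counts, and without WT replicate 1 or 3 or Y691F replicate 1.

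The same pattern was looked for across all genes, a search added with the results known. Of 11507 tested protein-coding genes with a 3′ untranslated region in the annotation, 4194 held TTCNNNGAA at least once. Of these 4194, 26.3% were called higher and 24.4% lower, and of the 7313 without it 26.0% and 22.6% were. The median log2 difference was -0.0023 with the pattern and 0.012 without. Genes with the pattern had longer regions, with a median of 2442.5 bases beside 633. In the longest of 3 length classes, 25.1% of those with the pattern and 23.4% of those without were lower. A match does not show that a site folds or is bound, and the shares were close with and without it.

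NF-kB proteins sit in the cytoplasm bound to IkB proteins until IKK signalling frees them, and several of the inhibitors are themselves NF-kB targets, which forms a feedback loop. Of 11 tested NF-kB subunit and IkB genes, 2 were higher and 7 lower, with a median log2 difference of -0.20. In the untreated comparison 4 had been higher and 2 lower, at a background of 15.1% and 16.1% of all genes. The difference between both comparisons was called for 10 of the 11, 8 of them downward, at a background of 14.7% upward and 11.0% downward. NFKBIE, which encodes IkB-epsilon, was at 459.8, 455 and 461 CPM with WT and 245, 241 and 237 CPM with Y691F (log2 difference -0.93, SE 0.029, adjusted p = 7.42e-45). Its untreated means were 74.6 and 79.9 CPM, so the gap between the forms was present with IgM at a size it did not have before (difference between the comparisons -1.03, SE 0.047). The precursor subunit genes NFKB1 and NFKB2 were lower (log2 differences -0.40 and -0.30) and showed no call in untreated cells. NFKB1 was at 666, 672 and 661 CPM with WT and 499, 521 and 497 CPM with Y691F, with no overlap. BCL3, which encodes an atypical IkB that coactivates p50 and p52 dimers, was at 40.2, 39.2 and 39.0 CPM with WT and 84.7, 85.9 and 89.2 CPM with Y691F (log2 difference 1.13, SE 0.046, adjusted p = 5.32e-37). It was the member that ran furthest against the rest, with 70.4 and 75.1 CPM untreated. RELB was slightly higher (log2 difference 0.13, SE 0.037), and RELA and REL were not called.

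Here and for the other promoter motifs, windows from RefSeq (GRCh38.p14, 250 bases before to 50 after the start) were searched on both strands for GGNNTTTCC, a common form of the NF-kB site. It was present in 5 of the 9 NF-kB and IkB genes that have a window in the table, beside 6.26% of all 27305 promoters and 6.72% of those of tested genes. Of these 5 genes 3 were lower and 1 higher with Y691F. TNFAIP3 is not among them. On its own list, the A20 and ubiquitin editors, 1 of 11 genes with a window held the letters (9.09%). Of the TNF ligands 1 of 8 did (12.5%). The stretches below are shown because they stand before A20, a gene for an IkB that was lower and one for an IkB that was higher, with matches in capitals.
TNFAIP3, chr6:137867172-137867232, plus strand: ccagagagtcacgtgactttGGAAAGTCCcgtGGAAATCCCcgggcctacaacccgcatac
NFKBIZ, chr3:101827748-101827796, plus strand: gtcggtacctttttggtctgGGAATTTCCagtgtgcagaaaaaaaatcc
BCL3, chr19:44748583-44748631, plus strand: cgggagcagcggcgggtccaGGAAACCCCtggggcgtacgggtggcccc

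A20 acts with a group of ubiquitin editors. Of 12 tested, 4 were higher and 4 lower, and none but TNFAIP3 passed 2-fold. TNIP1, the A20-binding adaptor ABIN1, was higher (319 and 381 CPM, log2 difference 0.26, SE 0.029), and OTULIN, which removes linear ubiquitin chains, was lower (33.1 and 27.3 CPM, log2 difference -0.27, SE 0.058). In the group of TRAF and cIAP proteins and their adaptors 3 were higher and 5 lower of 22. TRAF1, an adaptor of TNF receptors, was at 160.0 and 251 CPM (log2 difference 0.65, SE 0.032). TRAF4, of the same adaptor family, had the largest difference of the group and was lower, at 351, 338 and 363 CPM with WT and 198, 205 and 191 CPM with Y691F (log2 difference -0.82, SE 0.032, adjusted p = 1.85e-36), as in untreated cells (log2 difference -0.69).

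Of 10 tested TNF family ligands 2 were higher and 7 lower, with a median of -0.47, while in untreated cells 5 had been higher and 1 lower. LTA, which encodes lymphotoxin alpha, was at 116, 106 and 109.8 CPM with WT and 32.6, 32.2 and 32.6 CPM with Y691F (log2 difference -1.77, SE 0.046, adjusted p = 8.87e-51). All 3 Y691F libraries lay below the WT libraries, near the untreated means of 34.4 and 43.0 CPM. CD70, the ligand of CD27, was at 44.9 and 33.9 CPM (log2 difference -0.41, SE 0.058). TNFSF9, the 4-1BB ligand, was at 17.8 and 12.2 CPM (log2 difference -0.54, SE 0.084). TNFSF8, the CD30 ligand, was the exception with enough reads, at 3.41, 3.89 and 4.08 CPM with WT and 14.4, 13.4 and 17.6 CPM with Y691F (log2 difference 1.99, SE 0.11, adjusted p = 3.24e-27). Without WT replicate 1 or Y691F replicate 2 the higher count was 1. Among the lower members, TNFSF14 had 13, 21 and 9 reads with WT and 0, 4 and 5 with Y691F. It had 0 reads in every untreated library and passed the filter through the WT group with IgM.

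The TNF receptor genes split, with 8 of 19 higher and 7 lower. TNFRSF14, which encodes HVEM, the receptor of LIGHT and BTLA, was at 86.4, 83.7 and 82.3 CPM with WT and 13.7, 12.7 and 11.7 CPM with Y691F (log2 difference -2.72, SE 0.062, adjusted p = 5.82e-55). Its untreated means were 6.11 and 6.72 CPM with no call, and the difference between the comparisons was -2.87 (SE 0.13), adjusted p = 5.11e-33. TNFRSF1B, which encodes TNF receptor 2, was at 59.3, 66.9 and 61.7 CPM with WT and 183, 186 and 187 CPM with Y691F (log2 difference 1.56, SE 0.041, adjusted p = 3.79e-49), and was also higher untreated (log2 difference 1.76). TNFRSF11A, which encodes RANK, was at 55.1 and 112 CPM (log2 difference 1.03, SE 0.042), and TNFRSF17, which encodes BCMA, a plasma cell receptor, at 30.4 and 58.1 CPM (log2 difference 0.93, SE 0.053).

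**Figure D2:**
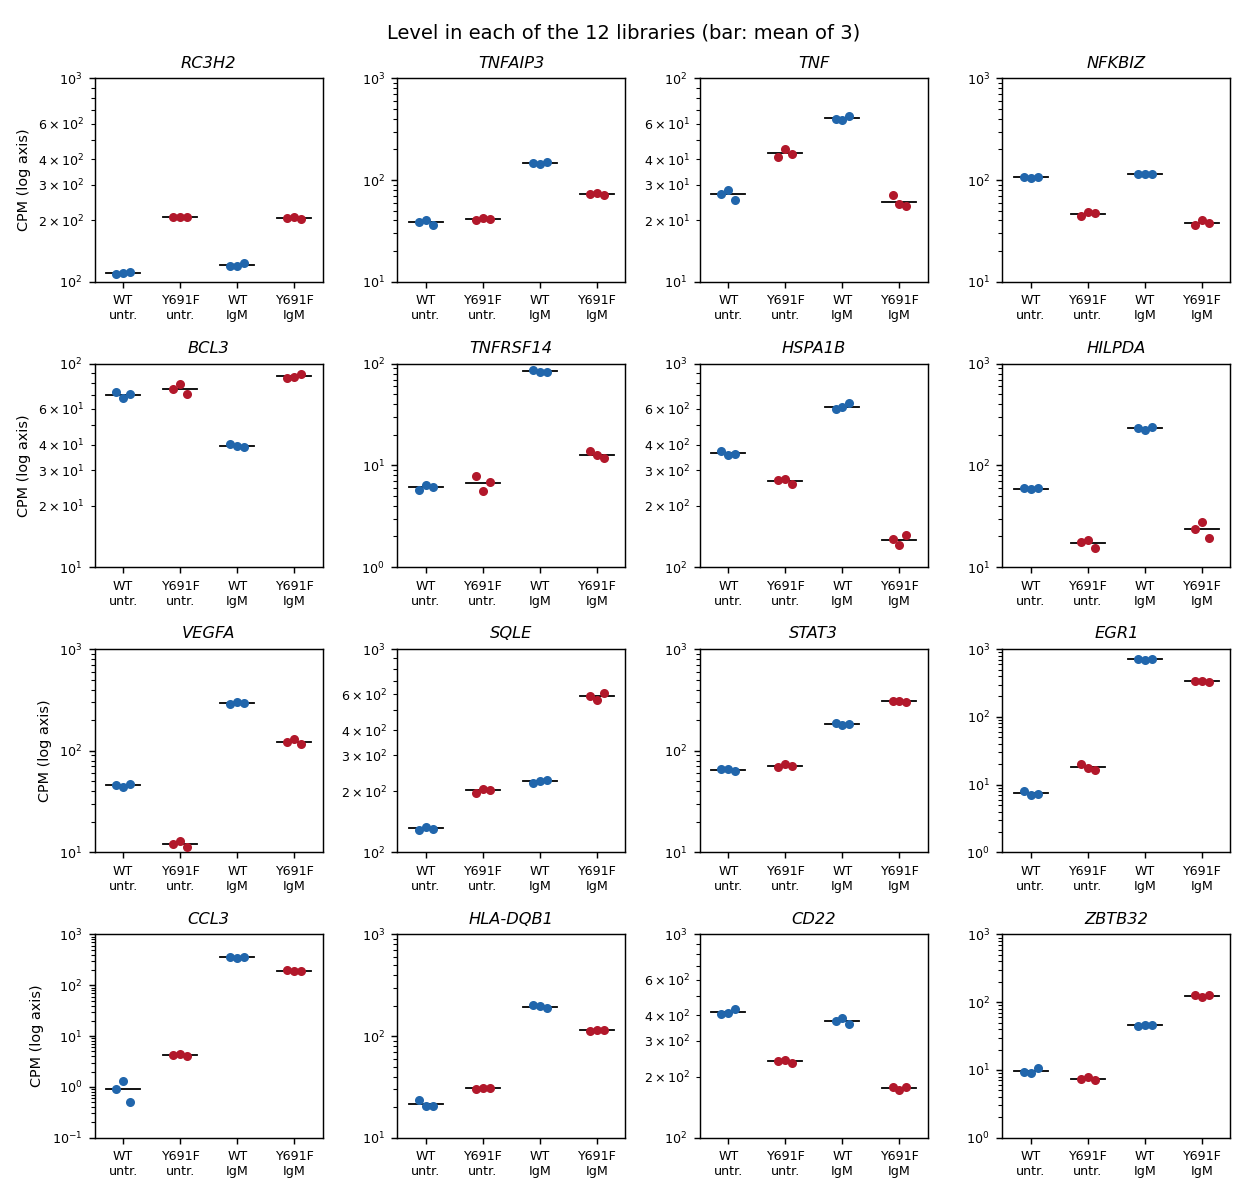
Each panel shows 1 gene, with the level in CPM on a log axis for each of the 12 libraries (points, blue WT and red Y691F) and the mean of each group of 3 as a bar. With IgM the points of the forms do not overlap in any of the 16 panels; in TNF, EGR1, CCL3 and HLA-DQB1 Y691F lies above WT untreated and below it with IgM, and TNFAIP3 and TNFRSF14 are close untreated and apart with IgM.

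Immediate early transcription factors are switched on within minutes of receptor engagement by ERK and calcium signals and then decline. Of 25 tested, 4 were higher and 16 lower at 12 h of IgM (median -0.24), whereas untreated 11 had been higher and 4 lower (median 0.42). The difference between both comparisons was downward for 15 of 25 and upward for 0. EGR1, a zinc finger factor induced by ERK, was at 725, 702 and 719.8 CPM with WT and 343, 337 and 322 CPM with Y691F (log2 difference -1.10, SE 0.030, adjusted p = 1.32e-47). In untreated cells it was at 7.43 CPM with WT and 18.2 CPM with Y691F, the opposite order. EGR3 showed the same reversal, with means of 31.1 and 21.3 CPM under IgM (log2 difference -0.54, SE 0.069) and 1.36 and 5.07 CPM untreated (log2 difference 1.91). NR4A1, which encodes the orphan nuclear receptor Nur77 and is used as a reporter of antigen receptor signals, was higher in both, at 732, 704 and 774 CPM with WT and 1241, 1206 and 1194 CPM with Y691F with IgM (log2 difference 0.72, SE 0.029, adjusted p = 1.01e-35) and 31.1 and 81.0 CPM untreated. FOSL2, an AP-1 subunit, was also higher in both (log2 differences 0.96 and 1.39). JUNB and BATF, further AP-1 family genes, were lower under IgM (log2 differences -0.31 and -0.79).

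Among 12 ERK feedback genes 5 were higher and 5 lower, and without WT replicate 1 the higher count was 3, as with the DESeq2 Wald test. DUSP2, a nuclear ERK phosphatase, was at 1167, 1106 and 1133 CPM with WT and 636, 676 and 603 CPM with Y691F (log2 difference -0.83, SE 0.035, adjusted p = 7.51e-20) and, untreated, at 55.4 and 86.2 CPM. DUSP16, a JNK and p38 phosphatase, was higher (47.4 and 74.1 CPM, log2 difference 0.64, SE 0.050). The calcineurin and NFAT genes were even, with 6 higher and 6 lower of 20.

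Chemokine genes, which B cells switch on after receptor stimulation to attract T cells, were 5 higher and 1 lower of 9 tested in untreated Y691F cells and 1 higher and 3 lower with IgM, and the difference between comparisons was downward for 6. CCL3 was at 360.2, 349.8 and 356 CPM with WT and 196, 192 and 189.8 CPM with Y691F (log2 difference -0.88, SE 0.032, adjusted p = 1.84e-40), against untreated means of 0.917 and 4.25 CPM. CCL4 was at 25.1, 23.6 and 25.3 CPM with WT and 34.5, 33.0 and 31.2 CPM with Y691F (log2 difference 0.42, SE 0.063, adjusted p = 2.99e-08). CCL3 and CCL3L3, and CCL4 and CCL4L2, are near-identical copies, so the split of reads between them is uncertain. CCL3L3 was lower (log2 difference -1.13), and CCL4L2 was not called. CXCL8, also lower, had 12, 17 and 11 reads with WT and 5, 3 and 5 with Y691F. It had 0 to 2 reads in the untreated libraries, so it passed the filter through the WT group with IgM.

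Receptors that guide B cells within lymph nodes were 6 higher and 3 lower of 15. CCR7, which draws B cells towards the T zone, was at 979.9, 994 and 951 CPM with WT and 395, 396 and 386 CPM with Y691F (log2 difference -1.31, SE 0.028, adjusted p = 2.44e-57), from untreated means of 1.97 and 3.57 CPM. GPR183, the oxysterol receptor EBI2 that guides activated B cells to the follicle edge, was at 8.56, 7.77 and 6.76 CPM with WT and 19.6, 21.1 and 20.6 CPM with Y691F (log2 difference 1.40, SE 0.092, adjusted p = 5.74e-24) and was higher untreated as well (log2 difference 1.76). CXCR5, the follicle homing receptor, was at 836 and 1224 CPM (log2 difference 0.55, SE 0.028), and P2RY8, a confinement receptor of germinal center B cells, at 79.2 and 140.3 CPM (log2 difference 0.82, SE 0.038). RGS1, which damps chemokine receptor signals, was lower, at 695 and 375 CPM (log2 difference -0.89, SE 0.029). Of 15 tested integrin and adhesion genes 7 were higher and 3 lower. ITGA4 and ITGB7, which pair as a gut homing integrin, were higher (log2 differences 0.67 and 1.08), and ITGB1 was lower (log2 difference -0.58, SE 0.053).

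Heat shock proteins are chaperones that refold damaged proteins, and their stress-inducible members are transcribed by HSF1. With IgM, 5 of 33 tested were higher and 20 lower with Y691F (median -0.16), and untreated 0 were higher and 21 lower (median -0.13). Without Y691F replicate 3 the higher count was 3. HSPA1B, an inducible HSP70, was at 596, 612 and 639.7 CPM with WT and 137, 128 and 144 CPM with Y691F (log2 difference -2.18, SE 0.033, adjusted p = 6.57e-64). HSPA1A, its near-identical neighbour, was at 113 and 21.3 CPM (log2 difference -2.41, SE 0.050), and reads shared by the pair may be split unevenly. In WT cells the HSPA1B level was higher with IgM than without (363 CPM untreated), and in Y691F cells it was lower with IgM than without (266 CPM untreated). HSPA6, an HSP70 that is nearly silent without stress, had 453, 456 and 383 reads with WT and 6, 7 and 4 reads with Y691F (log2 difference -6.26, SE 0.17, adjusted p = 9.48e-49). HSPB1, which encodes the small chaperone HSP27, was at 19.5, 17.9 and 16.2 CPM with WT and 1.83, 1.72 and 1.39 CPM with Y691F (log2 difference -3.42, SE 0.13, adjusted p = 1.74e-38). DNAJB1, the HSP40 partner of HSP70, was at 275, 271 and 276 CPM with WT and 82.8, 84.2 and 90.4 CPM with Y691F (log2 difference -1.68, SE 0.035, adjusted p = 7.22e-58). Each of these genes had Y691F libraries far below the WT libraries. The untreated differences were smaller, -0.15 for DNAJB1 and -0.45 for HSPA1B, and the difference between the comparisons was called for HSPA1B (log2 difference -1.73, SE 0.045), DNAJB1 (log2 difference -1.53, SE 0.050), HSPA6 and HSPB1. The constitutive HSP70 gene HSPA8, chosen after its values were seen, was higher (2034 and 2444 CPM, log2 difference 0.26), and HSP90AA1 was lower (1626 and 1239 CPM, log2 difference -0.39, SE 0.027).

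The letters GAANNTTC, the core of a heat shock element, were present in the window of 10 of 30 heat shock genes with a promoter in the table, 33.3%, beside 6.87% of all promoters and 4.64% of those of tested genes. Of the 10 genes 7 were lower and 3 higher. Windows of 3 genes that were lower are shown, with the letters in capitals.
HSPA1B, chr6:31827613-31827660, plus strand: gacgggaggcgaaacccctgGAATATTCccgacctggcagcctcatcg
HSPA6, chr1:161524451-161524498, plus strand: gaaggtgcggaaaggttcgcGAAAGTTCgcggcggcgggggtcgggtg
HSPB1, chr7:76302471-76302518, plus strand: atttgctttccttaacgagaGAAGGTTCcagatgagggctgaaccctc

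The integrated stress response slows translation through phosphorylated eIF2 alpha and favours ATF4, which drives amino acid supply genes. Of 25 tested members 7 were higher and 11 lower with IgM, and untreated 3 were higher and 21 lower. The difference between both comparisons was upward for 15 and downward for 2. PPP1R15A, which encodes GADD34, the phosphatase subunit that ends the response, was at 855, 873 and 881 CPM with WT and 364, 356 and 359 CPM with Y691F (log2 difference -1.27, SE 0.029, adjusted p = 1.21e-55). DDIT3, which encodes the stress factor CHOP, was at 235, 257 and 247 CPM with WT and 120.0, 118 and 109 CPM with Y691F (log2 difference -1.09, SE 0.036, adjusted p = 1.57e-43), and was also lower untreated (log2 difference -0.97). Among the 7 higher members were SLC7A11, the cystine transporter, at 15.2 and 29.1 CPM (log2 difference 0.94, SE 0.072), PSAT1 of serine synthesis at 12.0 and 20.6 CPM (log2 difference 0.78, SE 0.082), and SLC7A5, a leucine transporter, at 2827 and 3757 CPM (log2 difference 0.41, SE 0.028). On the list of serine and one-carbon metabolism, to which PSAT1 also belongs, 4 were higher and 5 lower of 17, with a median log2 difference of -0.04, and PSAT1 had its highest log2 difference. Chaperones of the endoplasmic reticulum were even, 6 higher and 6 lower of 22. HSPA5, which encodes BiP, was at 2442 and 2026 CPM (log2 difference -0.27, SE 0.028).

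Hypoxia-inducible factors raise genes for blood vessel growth, lipid storage and glycolysis, and activated B cells use the same genes in normal oxygen. Of 24 tested hypoxia-responsive genes outside glycolysis 3 were higher and 19 lower (median -0.49). Untreated, 2 were higher and 12 lower (median -0.25). HILPDA, a lipid droplet protein that blocks triglyceride breakdown, was at 232, 223 and 239 CPM with WT and 23.5, 27.7 and 19.3 CPM with Y691F (log2 difference -3.29, SE 0.066, adjusted p = 2.24e-21). It was at 58.9 and 17.2 CPM untreated, so the distance widened under IgM (difference between the comparisons -1.51, SE 0.11, adjusted p = 3.43e-10). VEGFA, the main angiogenic growth factor, was at 290.1, 299.6 and 293 CPM with WT and 122, 130.2 and 116 CPM with Y691F (log2 difference -1.26, SE 0.034, adjusted p = 2.43e-49). For VEGFA the untreated distance was the wider one, at 45.6 and 12.1 CPM (log2 difference -1.91). ADM, which encodes the vasodilator adrenomedullin, was at 225, 224 and 227 CPM with WT and 96.9, 104 and 90.2 CPM with Y691F (log2 difference -1.21, SE 0.040, adjusted p = 4.79e-33), with no call untreated. BHLHE40, a repressor induced by hypoxia and by activation, was at 279.7, 266 and 279 CPM with WT and 149, 149 and 159 CPM with Y691F (log2 difference -0.86, SE 0.036, adjusted p = 1.94e-33). Its paralog BHLHE41 was lower under IgM (28.7 and 13.6 CPM, log2 difference -1.08, SE 0.073) and higher untreated (log2 difference 1.33).

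Glycolysis and glucose uptake genes showed 17 of 26 lower and 4 higher (median -0.18), and untreated 22 were lower and 0 higher (median -0.27). SLC2A1, the glucose transporter GLUT1, was at 205, 219 and 216 CPM with WT and 130.3, 129 and 124 CPM with Y691F (log2 difference -0.74, SE 0.035, adjusted p = 1.11e-32). HK2, the inducible hexokinase, was at 213, 224 and 218 CPM with WT and 137, 144 and 131 CPM with Y691F (log2 difference -0.66, SE 0.036, adjusted p = 1.76e-27). ENO2, an enolase, was at 87.4 and 50.0 CPM (log2 difference -0.80, SE 0.044), PDK1, which diverts pyruvate from mitochondria, at 29.4 and 18.1 CPM (log2 difference -0.70, SE 0.069), and SLC16A3, the lactate exporter, at 36.3 and 21.5 CPM (log2 difference -0.74, SE 0.068). The difference between both comparisons was upward for 13 and downward for 5 of the 26.

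The core letters of a hypoxia response element, ACGTGC, stood in 6.87% of all promoters and in 9.04% of those of tested genes. They stood in 6 of 24 glycolysis genes with a window, 25.0%, of which 5 were lower and 1 higher. For the hypoxia list 18 of 24 members had a window, under the 80% set for such a share, so that check is void. The ANKRD37 window is shown for a hypoxia gene that was lower under IgM (61.4 and 39.6 CPM, log2 difference -0.63, SE 0.054) and not called untreated, with the letters in capitals.
ANKRD37, chr4:185396660-185396723, plus strand: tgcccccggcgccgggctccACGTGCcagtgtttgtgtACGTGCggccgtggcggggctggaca

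Cholesterol is made from acetyl-CoA by a chain of enzymes whose genes are raised together by SREBP2 when sterols are short. This was the list with the largest share of higher members among those with at least 20 tested: 23 of 30 were higher and 4 lower (median 0.50), and untreated 23 were higher and 1 lower (median 0.34). Without WT replicate 2 the lower count was 2. HMGCS1, which makes HMG-CoA, was at 107, 111 and 115 CPM with WT and 253, 259 and 259 CPM with Y691F (log2 difference 1.21, SE 0.034, adjusted p = 1.56e-48). SQLE, the squalene epoxidase, was at 220.4, 224 and 226 CPM with WT and 586, 565 and 611 CPM with Y691F (log2 difference 1.39, SE 0.030, adjusted p = 6.76e-57). For both genes the 3 Y691F libraries lay above the 3 WT libraries by more than the spread within either. DHCR7, a late enzyme of the chain, was at 346 and 587 CPM (log2 difference 0.76, SE 0.028). The difference between the comparisons was upward for SQLE (log2 difference 0.77, SE 0.044) and HMGCS1 (log2 difference 0.37, SE 0.052) and not called for DHCR7. The strict sterol element TCACNCCAC stood in 1 of 24 members with a window, in 1.15% of all promoters and in 1.08% of those of tested genes.

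Fatty acid synthesis genes, raised by SREBP1, showed 13 of 19 higher and 1 lower. FADS2, a desaturase of polyunsaturated fats, was at 158, 160.1 and 165 CPM with WT and 368, 356 and 361 CPM with Y691F (log2 difference 1.17, SE 0.030, adjusted p = 8.87e-51). SCD, which makes monounsaturated fats, was at 512, 511 and 521 CPM with WT and 880.1, 875 and 911 CPM with Y691F (log2 difference 0.79, SE 0.028, adjusted p = 3.46e-41). FASN, the synthase itself, was at 1982, 1991 and 2069.9 CPM with WT and 2991, 2945 and 2783 CPM with Y691F (log2 difference 0.53, SE 0.030, adjusted p = 3.55e-24). ACACB, an acetyl-CoA carboxylase, was higher under IgM (6.71 and 19.1 CPM, log2 difference 1.51, SE 0.085) and untreated (log2 difference 0.17), and ME1, malic enzyme, was the 1 lower member (log2 difference -0.52, SE 0.053). Of 11 polyamine genes 7 were higher and 0 lower, and 1 was lower when library totals alone were used for scaling. SAT1, which marks polyamines for export, was at 119.9 and 202 CPM (log2 difference 0.75, SE 0.034), and ODC1, the entry enzyme, at 1100.1 and 1191 CPM (log2 difference 0.11, SE 0.026).

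**Figure D3:**
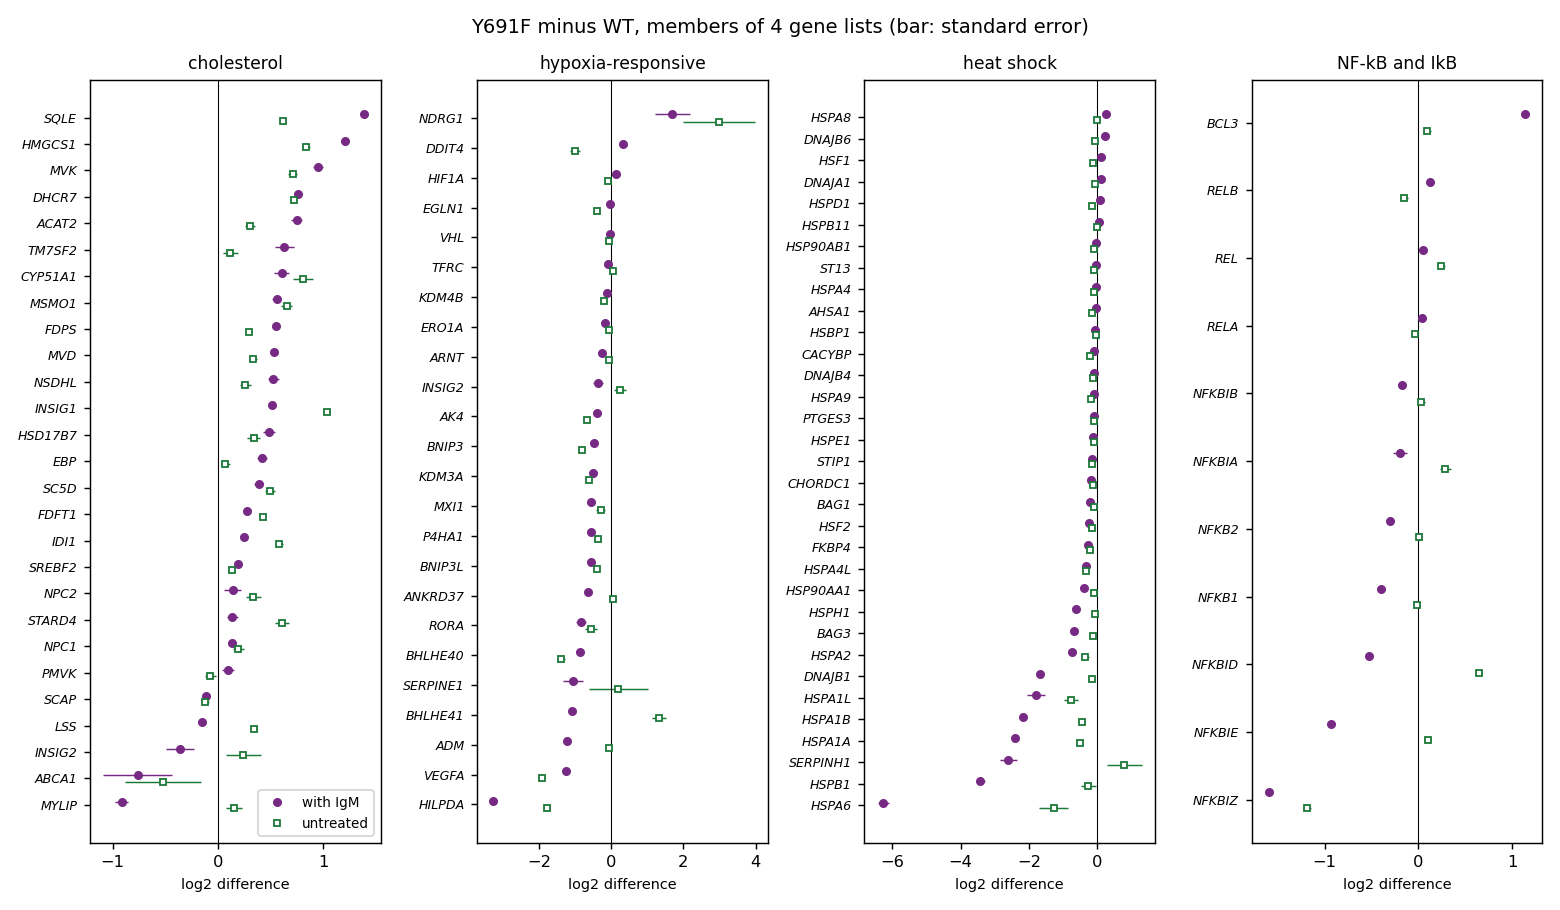
Points are the log2 difference, Y691F minus WT, of tested members of 4 gene lists with IgM (filled circles) and untreated (open squares), and bars are 1 standard error; members are ordered by the IgM value, and 3 cholesterol genes are not drawn. Most cholesterol genes lie right of 0 in both states, most hypoxia genes lie left of 0, and in the heat shock and NF-kB panels the lowest members lie further left with IgM than untreated.

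JAK-STAT proteins carry cytokine signals from receptors to the nucleus. Of 29 tested cytokine receptor and JAK-STAT genes 14 were higher and 8 lower. STAT3, which transmits IL-6 and IL-10 signals, was at 186, 179 and 183 CPM with WT and 305, 312 and 302 CPM with Y691F (log2 difference 0.74, SE 0.031, adjusted p = 3.17e-36). STAT4, best known from IL-12 signalling, was at 8.08, 7.56 and 7.40 CPM with WT and 24.1, 23.9 and 24.4 CPM with Y691F (log2 difference 1.65, SE 0.085, adjusted p = 2.92e-30). Both genes were higher in every Y691F library. PIM1, a kinase gene induced by STAT5 and NF-kB, was at 125, 122 and 126 CPM with WT and 55.9, 59.8 and 55.6 CPM with Y691F (log2 difference -1.12, SE 0.040, adjusted p = 8.42e-41), and PIM3 was lower as well (log2 difference -0.55, SE 0.029). IL10RA, the IL-10 receptor, was at 176 and 103 CPM (log2 difference -0.78, SE 0.034). SOCS1, a feedback inhibitor of JAKs, was at 12.4 and 23.9 CPM (log2 difference 0.96, SE 0.081), with no call untreated.

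Of 24 tested interferon response genes 10 were higher and 3 lower (median 0.45). Without WT replicate 2 or Y691F replicate 3 the lower count was 5. IRF1, an activator of antigen presentation genes, was at 34.8, 31.9 and 32.5 CPM with WT and 82.7, 79.4 and 77.4 CPM with Y691F (log2 difference 1.27, SE 0.049, adjusted p = 7.95e-39), and IRF7 was at 9.43 and 25.1 CPM (log2 difference 1.41, SE 0.081). Of 20 genes for MHC class I and its peptide supply 10 were higher and 2 lower. TAP1, a subunit of the peptide pump, was at 42.3, 37.3 and 42.5 CPM with WT and 68.4, 70.0 and 71.2 CPM with Y691F (log2 difference 0.78, SE 0.048, adjusted p = 1.88e-25), while TAP2, the other subunit, was lower (57.0 and 36.2 CPM, log2 difference -0.66, SE 0.051). The lower count was 1 without WT replicate 2 or any of the Y691F replicates, and 4 with library totals alone.

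MHC class II chains present antigen to helper T cells under the control of CIITA. Untreated, all 9 tested classical chains were higher with Y691F (median 0.50). With IgM 7 were lower and 1 higher (median -0.21), and the difference between both comparisons was downward for all 9. HLA-DQB1 was at 200.1, 197 and 187 CPM with WT and 113, 116 and 115 CPM with Y691F (log2 difference -0.77, SE 0.036, adjusted p = 2.07e-33). HLA-DRA was at 806, 816 and 791 CPM with WT and 714, 738 and 729.5 CPM with Y691F (log2 difference -0.14, SE 0.027, adjusted p = 6.3e-06), from untreated means of 237 and 343 CPM. HLA-DPA1 was the 1 higher chain (log2 difference 0.09, SE 0.030), a call lost without Y691F replicate 3. Class II chains are polymorphic and similar to each other, so reads can be split among them. CIITA was at 412, 381 and 396 CPM with WT and 303, 312 and 274 CPM with Y691F (log2 difference -0.42, SE 0.041, adjusted p = 3.31e-09), after 94.6 and 113 CPM untreated. CD74, the invariant chain, was higher in both states (log2 differences 0.19 with IgM and 0.26 untreated). Of 11 class II loading and regulation genes 2 were higher and 5 lower, with 4 higher without WT replicate 3.

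Checkpoint and costimulatory genes set how a B cell is seen by T cells. Of 12 tested 3 were higher and 9 lower (median -0.55), and untreated 5 were higher and 4 lower. CD274, which encodes PD-L1, was at 34.4, 34.4 and 31.7 CPM with WT and 8.39, 9.01 and 7.23 CPM with Y691F (log2 difference -2.02, SE 0.079, adjusted p = 2.96e-38). CD48, a SLAM family ligand, was at 306, 315 and 300.1 CPM with WT and 177, 179 and 177 CPM with Y691F (log2 difference -0.79, SE 0.031, adjusted p = 4.97e-38). CD80 and CD86, the ligands of CD28, moved apart, with CD80 at 16.6 and 8.34 CPM (log2 difference -0.99, SE 0.094) and CD86 at 31.6 and 61.1 CPM (log2 difference 0.95, SE 0.052). CD37, a tetraspanin, was lower (157 and 95.1 CPM, log2 difference -0.72, SE 0.036). In the SLAM family 1 of 6 was higher and 4 lower. SLAMF7, an adhesion receptor of activated B and plasma cells, was at 1021, 1046 and 989 CPM with WT and 593, 599.6 and 580.2 CPM with Y691F (log2 difference -0.79, SE 0.027, adjusted p = 9.4e-42), and was higher with Y691F untreated (log2 difference 1.18). Of 7 Fc receptor and Fc receptor-like genes 2 were higher and 4 lower. FCRL3 was at 13.1 and 5.04 CPM (log2 difference -1.38, SE 0.11), and FCRLA at 116 and 209 CPM (log2 difference 0.85, SE 0.035). Of 12 leukocyte Ig-like and LAIR receptor genes 3 were tested, and 3 were lower. Their summed level was 6.76 to 9.34 CPM with WT and IgM, and at most 0.483 CPM in any library of the other groups. They passed the filter through the group where they were high, so the lower calls are not a result about the list. LILRA6 had 60, 72 and 57 reads with WT and 1, 1 and 0 with Y691F, and LILRB3 had 42, 58 and 35 and 0, 1 and 1. These receptors are close copies, so their reads are hard to assign. The third, LILRA4, was not called by the DESeq2 Wald test.

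Of 7 genes for the B cell receptor and its coreceptors 4 were higher and 1 lower. CD79A, one of its signalling chains, was at 1091 and 1336 CPM (log2 difference 0.29, SE 0.027), and CD79B, the other, at 78.1 and 67.2 CPM (log2 difference -0.22, SE 0.040). IGHM was at 8085 and 8992 CPM (log2 difference 0.15, SE 0.028), and IGKC at 2382 and 3380.5 CPM (log2 difference 0.50, SE 0.029). IGHD, spliced from the same precursor as IGHM, was lower, at 14.4, 15.8 and 13.1 CPM with WT and 5.17, 6.28 and 5.96 CPM with Y691F (log2 difference -1.32, SE 0.099, adjusted p = 1.24e-20), with -1.48 untreated.

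Of 28 kinases and adaptors below the receptor 11 were higher and 12 lower. Among the kinases of the SRC family, BLK was at 43.2, 40.7 and 42.9 CPM with WT and 78.5, 78.4 and 75.3 CPM with Y691F (log2 difference 0.88, SE 0.045, adjusted p = 2.83e-30), FYN was higher (33.4 and 60.4 CPM, log2 difference 0.85, SE 0.052) and LYN lower (161 and 124 CPM, log2 difference -0.38, SE 0.034). PLCG2, the phospholipase that opens the calcium response, was at 276, 284 and 290.4 CPM with WT and 429, 429.6 and 428 CPM with Y691F (log2 difference 0.60, SE 0.029, adjusted p = 2.91e-32), and RASGRP3, which couples diacylglycerol to RAS, at 165, 164 and 172 CPM with WT and 95.1, 96.4 and 99.6 CPM with Y691F (log2 difference -0.78, SE 0.035, adjusted p = 3.14e-34). Of 16 brakes 6 were higher and 1 lower. The lower one, CD22, an inhibitory sialic acid receptor, was at 376, 388 and 364 CPM with WT and 177, 172 and 178 CPM with Y691F (log2 difference -1.10, SE 0.031, adjusted p = 2.55e-48), and was lower untreated (log2 difference -0.80). Without WT replicate 2, and with library totals alone, 2 brakes were lower. CD72, another inhibitory receptor, was higher (5.13 and 12.2 CPM, log2 difference 1.25, SE 0.11).

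Plasma cell differentiation turns on PRDM1 and XBP1 and a set of secretory genes. Of 20 secretory genes 14 were higher and 4 lower with IgM, and 18 were higher and 0 lower untreated, but the difference between both comparisons was downward for 9 and upward for 3. MZB1, a chaperone of IgM assembly, was at 51.5, 54.6 and 54.4 CPM with WT and 120.4, 120.0 and 119 CPM with Y691F (log2 difference 1.16, SE 0.040, adjusted p = 2.89e-42). JCHAIN, which links IgM pentamers, was at 144 and 188 CPM (log2 difference 0.39, SE 0.036). PRDM1, which encodes BLIMP1, was at 72.9, 66.5 and 64.4 CPM with WT and 130.1, 132 and 123 CPM with Y691F (log2 difference 0.92, SE 0.041, adjusted p = 3.14e-34). Of 21 B cell fate factors 11 were higher and 6 lower, the higher ones including IKZF1, IKZF3, MEF2C and IRF8 by 0.34 to 0.46 on the log2 scale. Of 19 germinal center markers 9 were higher and 6 lower with IgM, and 2 higher and 11 lower untreated, and the difference was upward for 12. LMO2, a germinal center factor, was at 32.3 and 53.5 CPM (log2 difference 0.73, SE 0.055) with no call untreated, and SERPINA9, a germinal center serpin, at 26.5, 23.8 and 27.0 CPM with WT and 7.56, 7.19 and 10.7 CPM with Y691F (log2 difference -1.62, SE 0.10, adjusted p = 2.08e-13).

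BCL2 family proteins set the threshold of mitochondrial apoptosis. Of 18 tested 3 were higher and 11 lower, and 5 were higher with index set as a factor. The higher genes were of both kinds: BCL2L11, which encodes the killer BIM, at 106, 102 and 105 CPM with WT and 169, 174 and 172 CPM with Y691F (log2 difference 0.72, SE 0.035, adjusted p = 1.45e-31), and MCL1, a guardian, at 1090.4, 1094 and 1109 CPM with WT and 1465, 1437 and 1453 CPM with Y691F (log2 difference 0.40, SE 0.026, adjusted p = 8.25e-24). So were the lower ones, with BCL2 at 2916 and 2351 CPM (log2 difference -0.31, SE 0.026), BCL2A1, another guardian, at 162 and 112 CPM (log2 difference -0.53, SE 0.036), and BAX, an executioner, at 86.9 and 55.4 CPM (log2 difference -0.65, SE 0.043). Of 21 p53 targets 7 were higher and 8 lower. PLK3, a stress kinase, was at 58.5, 56.0 and 56.0 CPM with WT and 19.5, 19.3 and 19.4 CPM with Y691F (log2 difference -1.55, SE 0.058, adjusted p = 8.59e-40), DDB2, a DNA damage sensor, at 26.3 and 57.4 CPM (log2 difference 1.13, SE 0.052), and CDKN1A, which encodes p21, at 146 and 183 CPM (log2 difference 0.32, SE 0.034).

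Most growth and division genes differed by small steps. Of 29 genes of G1/S and replication 9 were higher and 6 lower, and of 29 of mitosis 7 were higher and 5 lower, or 3 lower without WT replicate 2. CDKN2B, which encodes the CDK inhibitor p15, was at 6.84 and 15.3 CPM (log2 difference 1.15, SE 0.098). Of 82 cytosolic ribosomal protein genes 43 were lower and 6 higher, with a median of -0.08. The mitochondrial ribosomal proteins (25 lower and 7 higher of 76), the nuclear respiratory chain genes (25 lower and 4 higher of 76) and the proteasome subunits (16 lower and 3 higher of 38) had medians of -0.08, -0.07 and -0.07. The proteasome count was 10 without WT replicate 2, 9 without Y691F replicate 1 and 10 by the DESeq2 Wald test. Other scalings moved the median of all genes by at most 0.02 on the log2 scale. Processed pseudogenes, many of which share sequence with ribosomal protein genes, had 114 lower and 31 higher calls among 1149. Of 42 clustered histone genes 14 were higher and 0 lower, or 7 higher by the DESeq2 Wald test and 9 without WT replicate 2. These mRNAs mostly lack a poly(A) tail and are only partly seen in polyA+ libraries.

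**Figure D4:**
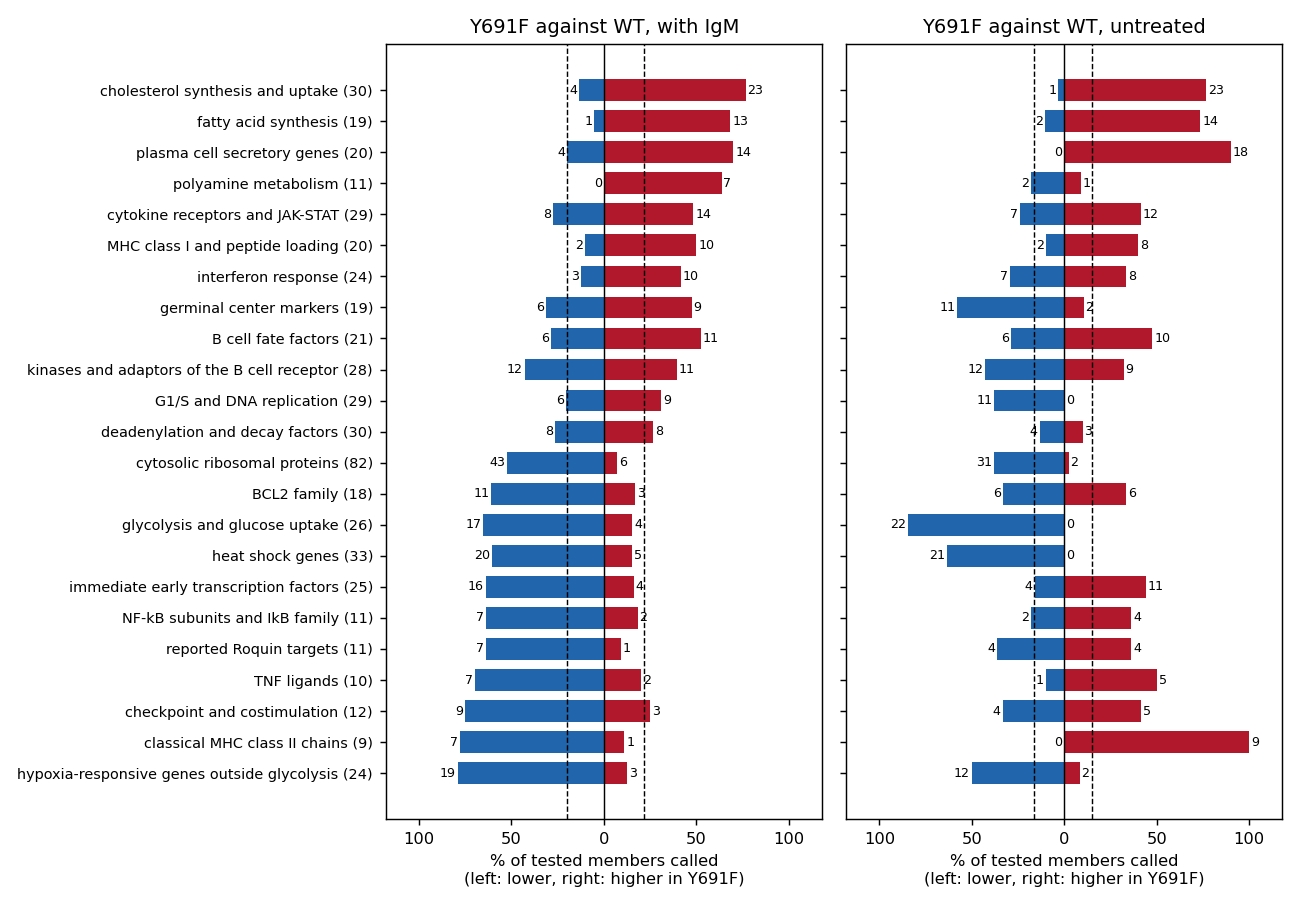
Bars give the percentage of tested members (number in brackets) of each gene list that were called higher (red, right) or lower (blue, left) with Y691F, with IgM on the left panel and untreated on the right, and the counts are printed at the bar ends. Dashed lines mark the shares of all genes (21.9% and 20.2% with IgM, 15.1% and 16.1% untreated); the class II bar points right untreated and left with IgM.

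Apart from the lists, the genes with the largest differences at 20 CPM or more were of mixed function. ATHL1, a gene for a glycosidase-like enzyme, was at 18.2, 16.1 and 21.2 CPM with WT and 81.9, 81.2 and 72.9 CPM with Y691F (log2 difference 2.10, SE 0.061, adjusted p = 6.65e-45). PDE4D and PDE4B, which break down cyclic AMP, were both higher: PDE4D was at 13.0, 12.3 and 12.3 CPM with WT and 48.3, 48.0 and 48.2 CPM with Y691F (log2 difference 1.94, SE 0.068, adjusted p = 9.14e-42), and PDE4B was at 20.4, 19.3 and 18.9 CPM with WT and 66.4, 62.9 and 71.9 CPM with Y691F (log2 difference 1.78, SE 0.056, adjusted p = 9.42e-45). TRIB1 and TRIB2, pseudokinases that steer the ubiquitin ligase COP1 to its substrates, were higher as well, TRIB1 at 37.2, 35.1 and 39.9 CPM with WT and 120.2, 114 and 118 CPM with Y691F (log2 difference 1.66, SE 0.046, adjusted p = 8.99e-49) and TRIB2 at 10.5, 12.8 and 14.1 CPM with WT and 49.1, 49.2 and 50.4 CPM with Y691F (log2 difference 1.99, SE 0.067, adjusted p = 5.87e-43). The remaining higher genes included RBM47, an RNA-binding protein (13.5 and 44.5 CPM), PIK3R3, a PI3K regulatory subunit (10.7 and 31.7 CPM), KIF26B (48.3 and 141 CPM) and ZFAT (38.5 and 103 CPM). Among the lower genes, NEDD4L, a ubiquitin ligase of membrane proteins, was at 3824, 3924 and 3732 CPM with WT and 1446, 1455 and 1408 CPM with Y691F (log2 difference -1.41, SE 0.027, adjusted p = 2.06e-60). It had been at 402 and 385 CPM untreated with no call, so its level with IgM was higher than untreated in both forms, and less so with Y691F. RHOBTB2, a cullin 3 adaptor, was at 281 and 99.5 CPM (log2 difference -1.50, SE 0.034), and NEIL2, a DNA glycosylase, at 31.8 and 12.0 CPM (log2 difference -1.41, SE 0.073).

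Follistatin, a secreted antagonist of activin, is encoded by FST, which was at 1.80, 2.27 and 2.36 CPM with WT and 31.7, 34.8 and 30.7 CPM with Y691F (log2 difference 3.92, SE 0.11, adjusted p = 3.81e-49). Untreated means were 1.73 and 4.20 CPM, and the difference between the comparisons was 2.64 (SE 0.23), adjusted p = 1.5e-16. Of 23 activin, follistatin and TGF-beta genes 9 were higher and 6 lower. LRRC32, which encodes GARP, the surface holder of latent TGF-beta, was at 259, 234 and 256 CPM with WT and 194, 189 and 186 CPM with Y691F (log2 difference -0.39, SE 0.036, adjusted p = 1.64e-14) with IgM and at 53.8 and 12.4 CPM untreated, a gap that was much wider before stimulation (log2 difference -2.11). Of 37 neural and axon guidance genes 21 were tested, and 14 were higher and 2 lower (median 0.49), most of them at low levels. With at least 5 CPM required in 3 libraries 8 were higher. Members with very few reads in the WT libraries, such as LRRN3 and NCAM1, could add only to the higher count. ROBO1, a receptor of SLIT ligands, was at 1.32, 0.864 and 0.701 CPM with WT and 10.2, 10.2 and 10.5 CPM with Y691F (log2 difference 3.41, SE 0.16, adjusted p = 1.28e-32). LRRN3 had 4, 5 and 2 reads with WT and 113, 144 and 119 with Y691F, and NCAM1, which encodes CD56, had 0, 3 and 1 reads with WT and 59, 40 and 39 with Y691F. SEMA4D, a semaphorin of lymphocytes, was at 45.2 and 73.7 CPM (log2 difference 0.70, SE 0.046), and SEMA7A at 249 and 168 CPM (log2 difference -0.56, SE 0.033).

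Set beside the untreated comparison, which uses other libraries, the differences with IgM were in part those already present. Of the 3305 higher genes, 1305 (39.5%) were also higher untreated, 336 (10.2%) were lower untreated and 1664 (50.3%) were not called untreated. Of the 3057 lower genes, 1097 (35.9%) were also lower untreated, 202 (6.61%) were higher and 1758 (57.5%) were not called. Over all 15112 tested genes, 15.1% were called higher and 16.1% lower untreated. Whether the differences themselves differed was tested by the interaction term, which called 2217 genes (14.7%) upward and 1666 (11.0%) downward. It called 953 of the 1664 higher and 775 of the 1758 lower genes that had no call untreated, and all 336 and all 202 genes with opposite calls. Across the 15112 genes the log2 differences had a Pearson correlation of 0.47, given as a description, since genes are not independent replicates.

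Genes with like differences in both states included TNFRSF1B, DACT1, a WNT pathway regulator (2.97 with IgM and 2.58 untreated on the log2 scale), HID1 (1.51 and 1.69), TNNI1, a troponin gene (-2.78 and -2.78), LGALS3, which encodes galectin-3 (-2.07 and -2.02) and RAB34 (-1.10 and -1.18). None of these was called in the interaction, which does not show that the differences are equal. For TNNI1 the 3 WT libraries with IgM were at 10.2, 10.8 and 11.8 CPM and the 3 Y691F libraries at 0.889, 1.93 and 1.96 CPM. For DACT1 they were at 3.17, 2.21 and 2.93 CPM and 21.3, 21.7 and 21.8 CPM.

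Genes that differed mainly with IgM or changed order included CALCRL, a receptor of adrenomedullin and CGRP, at 6.88, 6.91 and 7.14 CPM with WT and 30.1, 29.5 and 27.1 CPM with Y691F (log2 difference 2.05, SE 0.086, adjusted p = 2.28e-36), with no call untreated (log2 difference -0.26) and a difference between the comparisons of 2.31 (SE 0.16). ZBTB32, a repressor of plasma cell and B cell activation programmes, was at 44.2, 46.3 and 45.7 CPM with WT and 126, 119.7 and 128 CPM with Y691F (log2 difference 1.45, SE 0.043, adjusted p = 1.54e-46), and lower with Y691F untreated (log2 difference -0.36). VGF, a neuropeptide precursor, was at 145, 142 and 141 CPM with WT and 324, 303 and 275 CPM with Y691F (log2 difference 1.08, SE 0.036, adjusted p = 1.68e-39), from under 1 CPM in both forms untreated. HES6 was at 4.09 and 15.7 CPM with IgM and 15.7 and 12.8 CPM untreated.

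**Figure D5:**
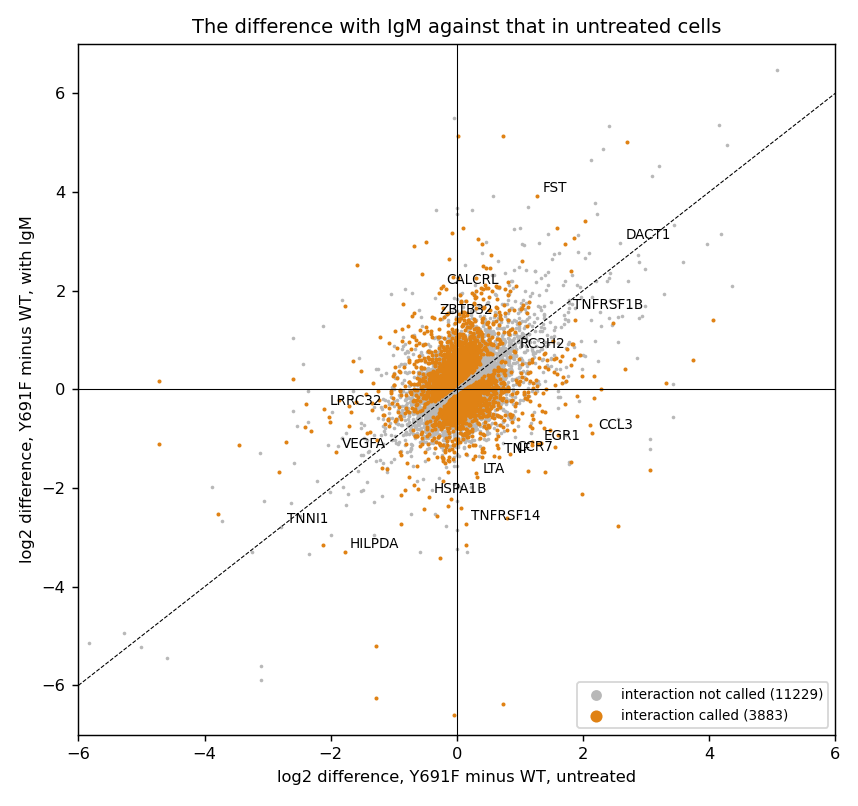
Each point is 1 of the 15112 tested genes, with the log2 difference between Y691F and WT in untreated cells on the horizontal axis and with IgM on the vertical axis, and the dashed line marks equal values; orange marks the 3883 genes called in the interaction. TNNI1, DACT1 and TNFRSF1B lie near the line, TNFRSF14 and HSPA1B near the vertical axis below 0, and CCL3, EGR1 and TNF in the quadrant of opposite signs.

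Over the autosomes and the X, the median log2 difference per chromosome ran from -0.04 on chromosome 10 to 0.03 on the X, the share of genes called higher from 17.8% on chromosome 5 to 27.7% on chromosome 11, and the share called lower from 14.1% on the X to 23.2% on chromosome 8. Among biotypes, protein-coding genes were 3038 higher and 2707 lower of 11670, long intergenic RNAs 57 and 60 of 578, and antisense genes 80 and 47 of 719. The kit keeps the strand, but no source used here says whether the counting used it, so antisense genes and their partners may share reads.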

How the data were processed

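RNA of 12 libraries was measured by strand-specific polyA+ sequencing, per the labels' protocols. The deposited count values are whole reads per Ensembl gene and were used as deposited by the authors. The RPKM values beside them, which the authors scaled by gene length and library size per the file headers, were not used. STAR 2.5.0b, DESeq2 and GRCh38 are named in the submitters' processing notes, and the read counter and annotation were in none of the sources used here.

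Genes were filtered with filterByExpr and fitted over all 12 libraries by group with edgeR 4.0.16 (TMM, robust quasi-likelihood test, Benjamini-Hochberg adjustment, R 4.3.3), with the difference between the IgM and untreated comparisons as an interaction term. The standard error is the size of the log2 difference over the square root of F. On simulated counts for the comparison with IgM (15112 genes, 200 changed) 86% were recovered, with 3 false calls. The changed genes were drawn from those at 1 CPM or more, and few were changed beside the 6362 called in the data. Their changes were all larger than 0.31 on the log2 scale, the median size among called genes. The recovery therefore does not carry over to lower genes or to smaller changes.

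Genes were named by rule: RC3H2, RC3H1, TNFAIP3 and KLHL6; the largest called differences with separated libraries (15 a direction at 20 CPM, 10 at 1 CPM); up to 8 members a list by adjusted p; and the 10 largest differences and likenesses between the IgM and untreated comparisons. The members and lists were chosen with earlier results of these data known. Alternatives were other scalings, filters, DESeq2 1.42.0, a replicate block, index set and each library left out. Promoters are from RefSeq (GRCh38.p14), and the pattern search in 3′ untranslated regions (GENCODE 29) was added later. Some genes that the rule names are not reported here, though they stay in the fit and in the counts.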

Additional observations from a re-analysis of the deposited data

Results flagged for a closer look

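These genes are listed because the difference between Y691F and WT was not the same with IgM and untreated, by the interaction term of edgeR's model (adjusted p under 0.05). Values are the difference with IgM minus that in untreated cells, on the log2 scale. For the genes that the study is built on, it was -0.15 (SE 0.046) for RC3H2, -0.48 (SE 0.074) for RC3H1, -1.11 (SE 0.062) for TNFAIP3 and 0.76 (SE 0.040) for KLHL6. RC3H2 kept a higher level with Y691F in both states, and KLHL6 changed its order.

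Among the other genes the difference moved downward for the zinc finger factors EGR1, by -2.39 (SE 0.085), and EGR3, by -2.45 (SE 0.18). It also moved downward for the chemokine genes CCL3, by -3.03 (SE 0.18), and CCL3L3, by -2.32 (SE 0.27), and for the repressor BHLHE41, by -2.41 (SE 0.20). Each of these was higher with Y691F untreated and lower with IgM. It moved upward for ZBTB32, by 1.82 (SE 0.10), HES6, by 2.24 (SE 0.14), SMPD3, a sphingomyelinase gene, by 1.71 (SE 0.24), and NAV2, a neuron navigator gene, by 1.73 (SE 0.26). The log2 difference of SMPD3 was 0.95 with IgM and -0.76 untreated. The log2 difference of NAV2 was 1.06 with IgM and -0.67 untreated.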

How the results depend on the processing

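No named gene that was called in the design used changed its direction under any alternative that gave it a value. Named genes that were not called gained no call against their direction. A change of sign without a call was not looked for in them. Over all alternatives, single-gene results kept their side of the threshold 6488 times, lost their call 55 times and gained one 34 times, and list results stayed within their limits 2449 times and moved 107 times. When at least 5 CPM in 3 libraries was required, the genes that passed 2-fold numbered 197 higher and 81 lower, because fewer low genes were tested. The called genes numbered 3305 higher and 3057 lower in the design used, 2993 and 2337 by the DESeq2 Wald test, 3476 and 2869 with DESeq2 size factors, and 3079 and 3352 with library totals alone. Leaving out 1 library at a time gave 3109 to 3248 higher and 2448 to 2682 lower genes. No pairing by replicate number was seen, with deviations of same-numbered libraries correlated at -0.0046, -0.0035 and 0.0009 across genes. This check took in all tested genes, many of them low, and counting noise can hide a shared part, so it cannot exclude pairing. With the replicate block 3310 genes were higher and 3054 lower. The index set read from the library names (2 of 3 WT and 1 of 3 Y691F libraries with one set) as a factor gave 3266 and 2974. Low depth limits the genes under 1 CPM, of which 14.3% were called.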
